A study of Drosophila melanogaster with 6 samples.

Results

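The genes described are the 10 glycolysis enzymes from hexokinase to pyruvate kinase that were listed by symbol, namely Hex-A, Pgi, Pfk, Tpi, Gapdh1, Gapdh2, Pgk, Pglym78, Eno and PyK, of 17737 genes in the count table. The rule that picked them used gene names and no measured value, although the list was made with earlier results of these data known. Aldolase (Ald), the step between Pfk and Tpi, was not among them and is given with the related genes. All 10 were found in the table and passed the count filter of the genotype comparison, which kept the 4093 genes that reached 10 counts in 2 or more of the 6 libraries.

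Glycolysis is the pathway that splits glucose into pyruvate in the cytoplasm, with a net gain of ATP and NADH. Its early enzymes trap and phosphorylate the sugar at the cost of ATP, and its later enzymes, from glyceraldehyde-3-phosphate dehydrogenase to pyruvate kinase, recover ATP from 3-carbon intermediates. In the insect brain, glia are known to run much of this pathway and to pass lactate to neurons, while neurons also carry the enzymes themselves.

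RNA-seq was made from 25 hand-picked GFP+ PPL1-γ1pedc dopamine neurons (DANs) per library, taken from Drosophila melanogaster 3rd instar larvae 120 h after egg laying, with 3 libraries per genotype. Both genotypes carried ∆TH-D'-GAL4, UAS-dicer2 and UAS-mCD8:GFP. Stromalin KD flies added a UAS-Stromalin RNAi transgene against SA, a cohesin subunit, and control flies did not carry it according to the study's methods and their genotype label (WT), although the treatment text in the labels names the RNAi for every sample. At this stage the driver is active in few neurons of each brain, so a library pools neurons of many larvae. The question for these genes was whether Stromalin KD changed the RNA of the glycolytic pathway.

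Each library held 7790921 to 9625056 counts, of which rRNA genes took 16.6% to 30.3%, and 2298 to 4004 genes reached 10 counts. All 4 dopamine markers (ple, DAT, Vmat, Ddc) and all 5 pan-neuronal markers passed 10 counts in every library. The glial markers repo, alrm and Gat and 4 of 5 neuroblast markers (dpn, ase, wor and mira) were at 0 in all 6, while the fifth, grh, had 244 counts in control 2 and 681 and 800 counts in Stromalin KD 2 and 3. Of the other 4 glial markers, nrv2 had 3824 counts in control 2 and 1187 and 728 counts in Stromalin KD 1 and 2, and Gs2, Eaat1 and moody each had counts in 1 library. The 7 glial markers had summed normalized CPM (counts scaled to library size by TMM factors) of at most 374 in control and 187.0 in Stromalin KD. Fat body and blood cell markers, 10 in the list with Hml and NimC1 at 0 throughout, summed to 1074 CPM in control 2 and 728 CPM in Stromalin KD 3 against 58.5 CPM or less in the other 4 libraries. The part of such RNA in the glycolytic counts was not tested. SA, the targeted gene, had 0, 0 and 1372 counts in control against 3, 0 and 0 counts in Stromalin KD, so that 2 of 3 control libraries were at 0 and the target gives no check of the labels. In such bulk libraries, fewer contributing cells and less RNA per cell cannot be told apart.

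The glycolytic enzymes were detected more often than most genes counted. Of the 10, 7 reached 10 counts in all 6 libraries (70.0%), against 1001 of all 17737 genes (5.64%) and 9 of 72 genes in the related pathway lists (12.5%). The exceptions were Tpi, Pgk and PyK. Of the 17737 genes, 10815 were at 0 in all 6 libraries, and the 1001 were 24.5% of the 4093 genes that passed the count filter. In order of library, 9, 10 and 7 enzymes reached 10 counts in control against 10, 10 and 8 in Stromalin KD. Control 2 and Stromalin KD 2 were the highest libraries of their genotypes for the summed enzymes. The sum was 1834, 3730 and 2546 CPM in control against 2322, 4547 and 2435 CPM in Stromalin KD. The genotypes overlapped, with means of 2703 ± 957 and 3101 ± 1253 CPM (SD, n = 3 each). The 10 enzymes took 0.166% to 0.482% of all counts.

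**Figure D1:**
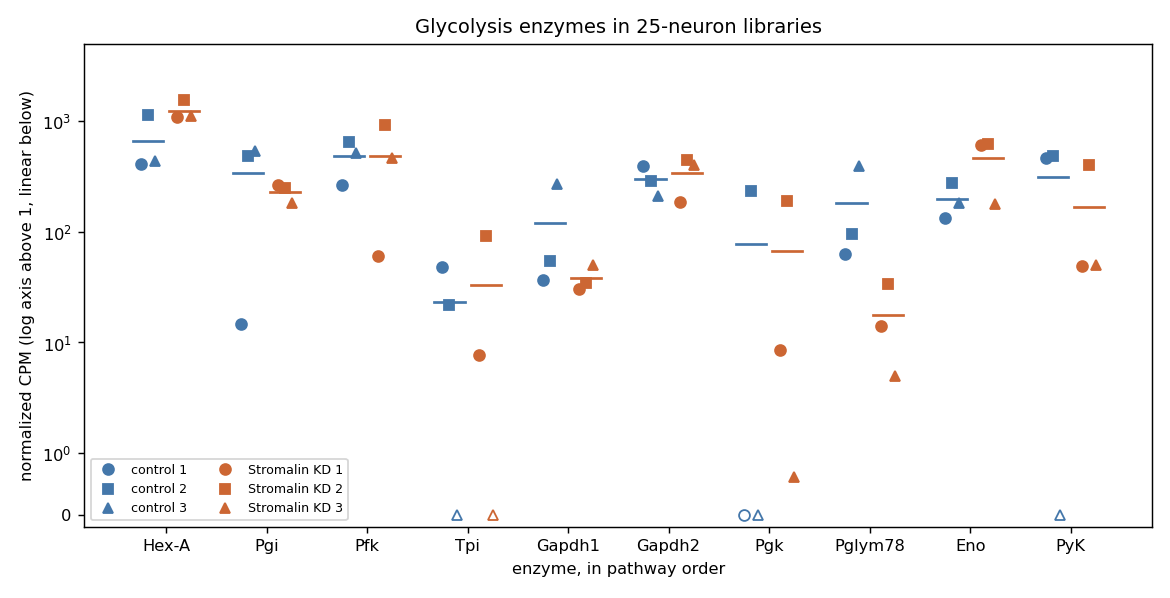
Normalized CPM (vertical axis, log above 1 and linear below) of the 10 enzymes in pathway order (horizontal axis), with 1 symbol per library, open symbols at 0 and a bar at the mean of 3 libraries for control (blue) and Stromalin KD (orange). Only Pglym78 has all control libraries (63.1 to 391 CPM) above all Stromalin KD libraries (4.97 to 33.8 CPM).

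None of the 10 enzymes passed the test of genotype. In edgeR's quasi-likelihood test, adjusted over all 4093 genes, 0 of 10 were called, beside 2 of 4093 genes (0.0489%), and the lowest adjusted p among the enzymes was 0.9996. At an unadjusted edgeR p under 0.05 the count was also 0 of 10, beside 132 of all genes (3.23%). DESeq2, run as the study's tool, called 0 of the 9 enzymes to which it gave an adjusted p (Pgk had none), beside 160 of 2930 genes (5.46%), and its lowest adjusted p among them was 0.667, for Pglym78. Among genes at 10 counts in all 6 libraries, DESeq2 called 0 of the 7 enzymes and also 0 of all 972 genes with an adjusted p. The log2 fold change was positive for 5 enzymes and negative for 5. Its median was -0.11, beside 0.07 over all genes tested, and its median size without sign was 0.74, beside 1.59. Among genes at 10 counts in all 6 libraries, this median size was 0.92 for the 7 enzymes, beside 0.67 for all 1001 genes. The median standard error was 1.80 for the enzymes, so these comparisons could have missed changes of several-fold.

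**Figure D2:**
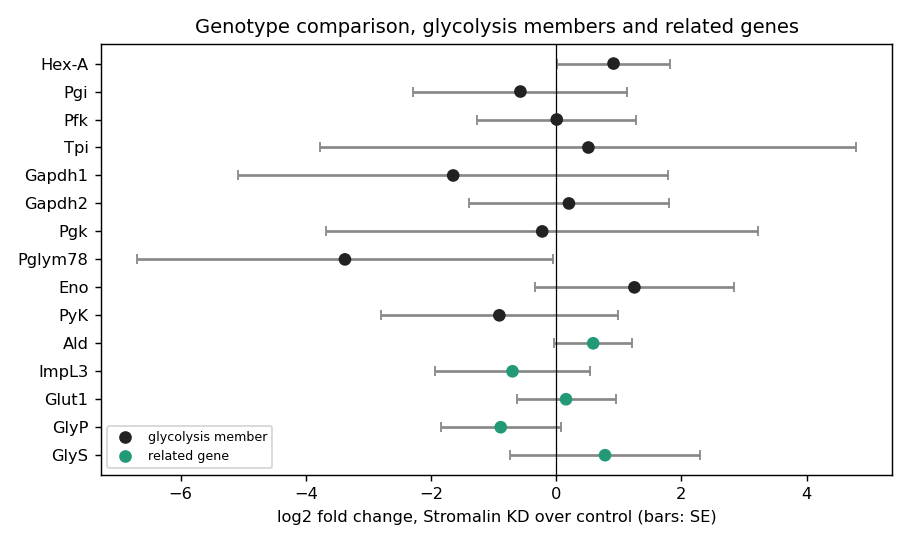
Log2 fold change, Stromalin KD over control (horizontal axis), of the 10 enzymes (black) and 5 related genes (green), with bars for the standard error from edgeR, n = 3 libraries per genotype. Estimates for the enzymes run from -3.38 for Pglym78 to 1.25 for Eno, and no adjusted p among the 15 genes passed the threshold.

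By mean level over the 6 libraries, hexokinase led the first enzymes of the pathway, but in control 3 Pgi and Pfk were higher. Hex-A (FBgn0001186, BDGP6 X:9585675-9589813, plus strand), which phosphorylates glucose on entry, had 2892, 11662 and 3288 counts in control against 9408, 15875 and 9115 counts in Stromalin KD. These were 411, 1140 and 436 normalized CPM against 1088, 1555 and 1105, and control 2 lay inside the Stromalin KD range while the other control libraries lay below it. The log2 fold change was 0.92 (SE 0.91, edgeR unadjusted p = 0.312, adjusted p = 0.9996; exact permutation p = 0.3, two-sided). With the size factors of the deposited table, the same libraries read 3197, 7499 and 3390 in control against 7502, 10694 and 8627 in Stromalin KD, and did not overlap, with control 2 just under the lowest Stromalin KD library, so whether the groups overlap for Hex-A depended on the scaling.

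Pgi (FBgn0003074, 2R:8910900-8914069, minus strand), the isomerase that turns glucose-6-phosphate into fructose-6-phosphate, had 103, 4929 and 4039 counts in control against 2299, 2528 and 1491 counts in Stromalin KD. Control 1 was the lowest library and the other control libraries the highest, so the Stromalin KD libraries lay between them. The log2 fold change was -0.57 (SE 1.71, edgeR unadjusted p = 0.738, exact permutation p = 0.5), and its sign turned with other settings. Pfk (FBgn0003071, 2R:10109740-10117457, plus strand), phosphofructokinase, the main regulated step, had 1888, 6687 and 3919 counts in control against 528, 9449 and 3822 counts in Stromalin KD. Both the lowest and the highest library were Stromalin KD, and the means of 480 ± 196 and 483 ± 433 CPM (SD, n = 3) lay together, with a log2 fold change of 0.01 (SE 1.27, edgeR unadjusted p = 0.995). Tpi (FBgn0086355, 3R:30132981-30134599, minus strand), which interconverts the triose phosphates, was the lowest enzyme per length. It had 342, 221 and 0 counts in control against 66, 945 and 0 counts in Stromalin KD, a spread in both genotypes that ran from 0 upward.

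The glyceraldehyde-3-phosphate dehydrogenases, which make NADH, are encoded by the similar copies Gapdh1 and Gapdh2. How the counting treated any reads that match both was not checked, so the division between them is uncertain. Gapdh1 (FBgn0001091, 2R:7791901-7793380, minus strand) had 258, 554 and 2035 counts in control against 261, 353 and 416 counts in Stromalin KD. Gapdh2 (FBgn0001092, X:15868145-15869661, plus strand) had 2774, 2955 and 1587 counts in control against 1610, 4517 and 3297 counts in Stromalin KD. Control 3 was the highest library for Gapdh1, and for Gapdh2 it was the lowest of the control libraries. The Gapdh1 share of the pair's counts was 8.51% (95% Wilson interval 7.57% to 9.56%), 15.8% (14.6% to 17.0%) and 56.2% (54.6% to 57.8%) in control. In Stromalin KD it was 13.9% (12.5% to 15.6%), 7.25% (6.55% to 8.01%) and 11.2% (10.2% to 12.3%). Control 3 was the only library in which Gapdh1 took the larger part, and the control mean share was 26.8% with it and 12.1% without it, beside 10.8% in Stromalin KD. These intervals do not cover the spread between libraries. They treat reads as independent, which amplified reads are not, so they are too narrow even for counting error. On the TPM scale (counts scaled by gene length and depth), the pair summed to 679, 767 and 864 in control against 390, 1075 and 913 in Stromalin KD. The log2 fold changes were -1.65 for Gapdh1 (SE 3.43, edgeR unadjusted p = 0.631) and 0.20 for Gapdh2 (SE 1.60, edgeR unadjusted p = 0.899).

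**Figure D3:**
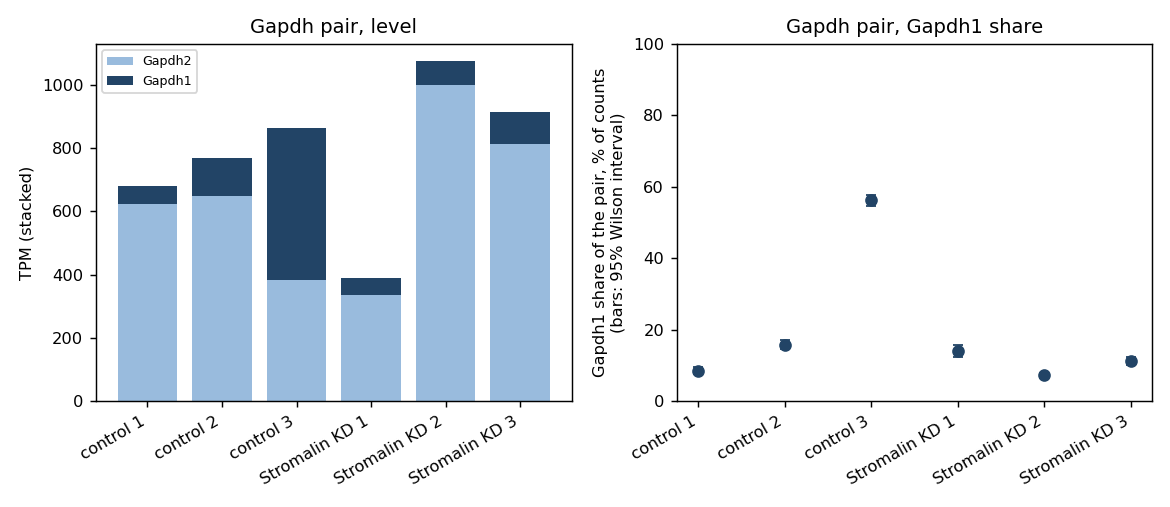
Left, stacked TPM of Gapdh2 and Gapdh1 (vertical axis) in each of the 6 libraries. Right, the Gapdh1 share of the pair's counts in percent, with 95% Wilson intervals that treat reads as independent. Control 3 holds 56.2% Gapdh1 while the other 5 libraries hold 7.25% to 15.8%.

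Among the enzymes, Pgk reached 10 counts in the fewest libraries, 3, beside 4 for Tpi and 5 for PyK. Pgk (FBgn0250906, 2L:2746880-2753068, minus strand), phosphoglycerate kinase, the first step to return ATP, had 0, 2395 and 0 counts in control against 74, 1953 and 5 counts in Stromalin KD. Nearly all of its counts came from control 2 and Stromalin KD 2, the same libraries that led the summed enzymes. The log2 fold change of -0.22 (SE 3.45, edgeR unadjusted p = 0.948) therefore rested on 1 library per genotype. DESeq2 without control 2, run after the data were seen, called Pgk at a log2 fold change of 11.19 (adjusted p = 0.0129), with both remaining control libraries at 0, in a fit that called 19.8% of all genes. Exons of Cwc25 on the opposite strand share 65 of its 2112 exon bases, but Cwc25 had 246 counts in Stromalin KD 2 and 1 or 0 elsewhere.

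Pglym78 (FBgn0014869, 3R:29148248-29149901, plus strand), phosphoglycerate mutase, was the only enzyme whose genotypes did not overlap in normalized CPM, beside 271 of 4093 genes (6.62%). It had 444, 985 and 2948 counts in control against 123, 345 and 41 counts in Stromalin KD. In normalized CPM these were 63.1, 96.3 and 391 in control against 14.2, 33.8 and 4.97 in Stromalin KD. The means were 183 ± 180 and 17.7 ± 14.7 CPM (SD, n = 3), and the log2 fold change of -3.38 did not pass the test (SE 3.32, edgeR unadjusted p = 0.310, adjusted p = 0.9996). The exact permutation p was 0.1, the smallest that 3 against 3 libraries can give. Control 3 alone held 60.3% of the counts of the 6 libraries. The opposite-strand gene eIF2D shares 6 of 1136 exon bases with Pglym78 and had 799, 72 and 0 counts in control and 0 in each Stromalin KD library. Whether the counting used strand is not given in the sources.

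Eno (FBgn0000579, 2L:1724768-1729636, minus strand), enolase, had 931, 2840 and 1385 counts in control against 5293, 6314 and 1488 counts in Stromalin KD. Stromalin KD 1 and 2 lay above every control library, and Stromalin KD 3 (180 CPM) lay within the control range of 132 to 278 CPM. Its log2 fold change of 1.25 was the highest of the 10 (SE 1.59, edgeR unadjusted p = 0.431, exact permutation p = 0.3). Rrp40, which overlaps Eno on the opposite strand, was at 0 in all 6 libraries. PyK (FBgn0267385, 3R:22367536-22372746, plus strand), pyruvate kinase, the last step and the other source of ATP, had 3283, 4929 and 0 counts in control against 421, 4143 and 416 counts in Stromalin KD. Control 3, the library highest for Gapdh1 and Pglym78, was the only one without PyK counts. The log2 fold change was -0.91 (SE 1.89, edgeR unadjusted p = 0.631), and its sign turned with other settings.

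Compared per length, the enzymes fell in the order Hex-A, Gapdh2, Pgi, Pfk, PyK, Eno, Pglym78, Gapdh1, Pgk and Tpi by mean TPM over the 6 libraries. The means were 682 for Hex-A, 634 for Gapdh2, 341 for Pgi and 53.7 for Tpi. The largest step lay between Gapdh2 and Pgi, 293 TPM beside SDs of 252 and 231 TPM (n = 6), and Gapdh2 was higher than Pgi in 5 of 6 libraries. Every other step between neighbours was smaller than the SD of either gene. The highest enzyme of a library was Hex-A in 3, Gapdh2 in 2 and Pglym78 in 1. The summed TPM of the 6 enzymes from Gapdh1 to PyK over that of the first 4 was 3.02, 1.14 and 1.63 in control against 0.904, 1.07 and 0.867 in Stromalin KD. These ratios did not overlap between genotypes. The split was chosen after the values were seen and was given no test, and with aldolase counted among the first enzymes the ratios overlapped, at 1.19, 0.549 and 1.02 against 0.466, 0.638 and 0.263.

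Among 13 other glycolytic genes, aldolase stood alone as a steadily detected gene. Ald (FBgn0000064), which splits fructose-1,6-bisphosphate, had 8169, 26562 and 7724 counts in control against 12050, 19537 and 32099 counts in Stromalin KD. With a mean of 1534 TPM over 6 libraries it was higher than each of the 10 enzymes, and its log2 fold change was 0.59 (SE 0.62, edgeR unadjusted p = 0.345). Of the remaining 12, 9 were at 0 in all 6 libraries, among them the alternative hexokinases Hex-C, Hex-t1 and Hex-t2 and the mutase Pglym87, so that Hex-A carried all counts of the listed hexokinases. The other 3 had counts in control alone. CG5432 had 1 count in control 2. CG7059 had 452 and 4 counts in control 2 and 3, and CG7069 had 532 and 7 counts in control 1 and 2. For each of these 3 genes, 98.7% or more of the counts came from 1 library. They did not pass the count filter and were not tested.

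Of 72 related genes in 7 lists, 36 could be tested and edgeR called 0. Without adjustment, edgeR put 0 of them higher and 1 lower under 0.05 (Taldo, edgeR unadjusted p = 0.0247), beside 3.23% of all genes in either direction. Taldo, transaldolase, an enzyme of the non-oxidative pentose phosphate branch, had 2246, 216 and 0 counts in control and 0 in all Stromalin KD libraries. No fold could be measured directly with Stromalin KD at 0. With 3 counts assumed as the floor of that whole group, the calculated folds of control over it in normalized CPM were 1024, or 95.4 without control 1. These folds are not lower bounds, since amplified reads are not independent molecules and control 3 was also at 0. The edgeR log2 fold change of Taldo was -12.9 (SE 5.76, adjusted p = 0.809). DESeq2 called it (adjusted p = 1.03e-10), as its only call among the 28 related genes with an adjusted p (beside 5.46% of all genes), but not without control 1 (adjusted p = 0.131). The NADPH-making enzymes of that pathway, Zw and Pgd, were at 0 in every library.

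The exits of the pathway from pyruvate and NADH varied widely between libraries. ImpL3, lactate dehydrogenase, which turns pyruvate into lactate and restores NAD+, had 226, 2650 and 11971 counts in control against 2026, 4907 and 3652 counts in Stromalin KD. Control held both its lowest and its highest library (log2 fold change -0.70, SE 1.24, edgeR unadjusted p = 0.574). Gpdh, which also restores NAD+ by making glycerol-3-phosphate, had 0, 1131 and 19 counts in control against 474, 1219 and 12 counts in Stromalin KD. The l(1)G0334 gene, a pyruvate dehydrogenase subunit that feeds the citric acid cycle, had 3245, 535 and 0 counts in control against 884, 0 and 10 counts in Stromalin KD, with a log2 fold change of -2.31 (SE 3.15, edgeR unadjusted p = 0.463). Of 17 citric acid cycle genes, 4 (kdn, Nc73EF, skap and Idh3b) reached 10 counts in all 6 libraries and 0 of the 13 tested were called by edgeR.

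Of the genes for sugar supply and glycogen, Glut1 was the steadiest, with a coefficient of variation of 20.4% in normalized CPM over the 6 libraries. Glut1, a glucose transporter, had 5761, 13576 and 9906 counts in control against 13104, 10581 and 10754 counts in Stromalin KD. Its level was 293 ± 113 TPM in control and 340 ± 27.9 TPM in Stromalin KD (SD, n = 3), with a log2 fold change of 0.16 (SE 0.79, edgeR unadjusted p = 0.843). GlyP, which frees glucose units from glycogen, had 10131, 6428 and 9638 counts in control against 2534, 4261 and 9068 counts in Stromalin KD (log2 fold change -0.89, SE 0.96, edgeR unadjusted p = 0.355). GlyS, which builds glycogen, had 707, 2532 and 3284 counts in control against 331, 1781 and 9341 counts in Stromalin KD (log2 fold change 0.78, SE 1.51, edgeR unadjusted p = 0.606). For both glycogen enzymes the genotypes overlapped, and Stromalin KD 1 was the lowest library. Of 5 genes for gluconeogenesis and trehalose synthesis, fbp, Pepck and Tps1 were at 0 in all 6 libraries and G6P had 12 counts in control 1 alone. The fifth, CG10924 (Pepck2 in the annotation), had 0, 283 and 2 counts in control against 690, 0 and 1545 counts in Stromalin KD. Its genotypes overlapped (log2 fold change 3.25, SE 4.25, edgeR unadjusted p = 0.443).

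**Figure D4:**
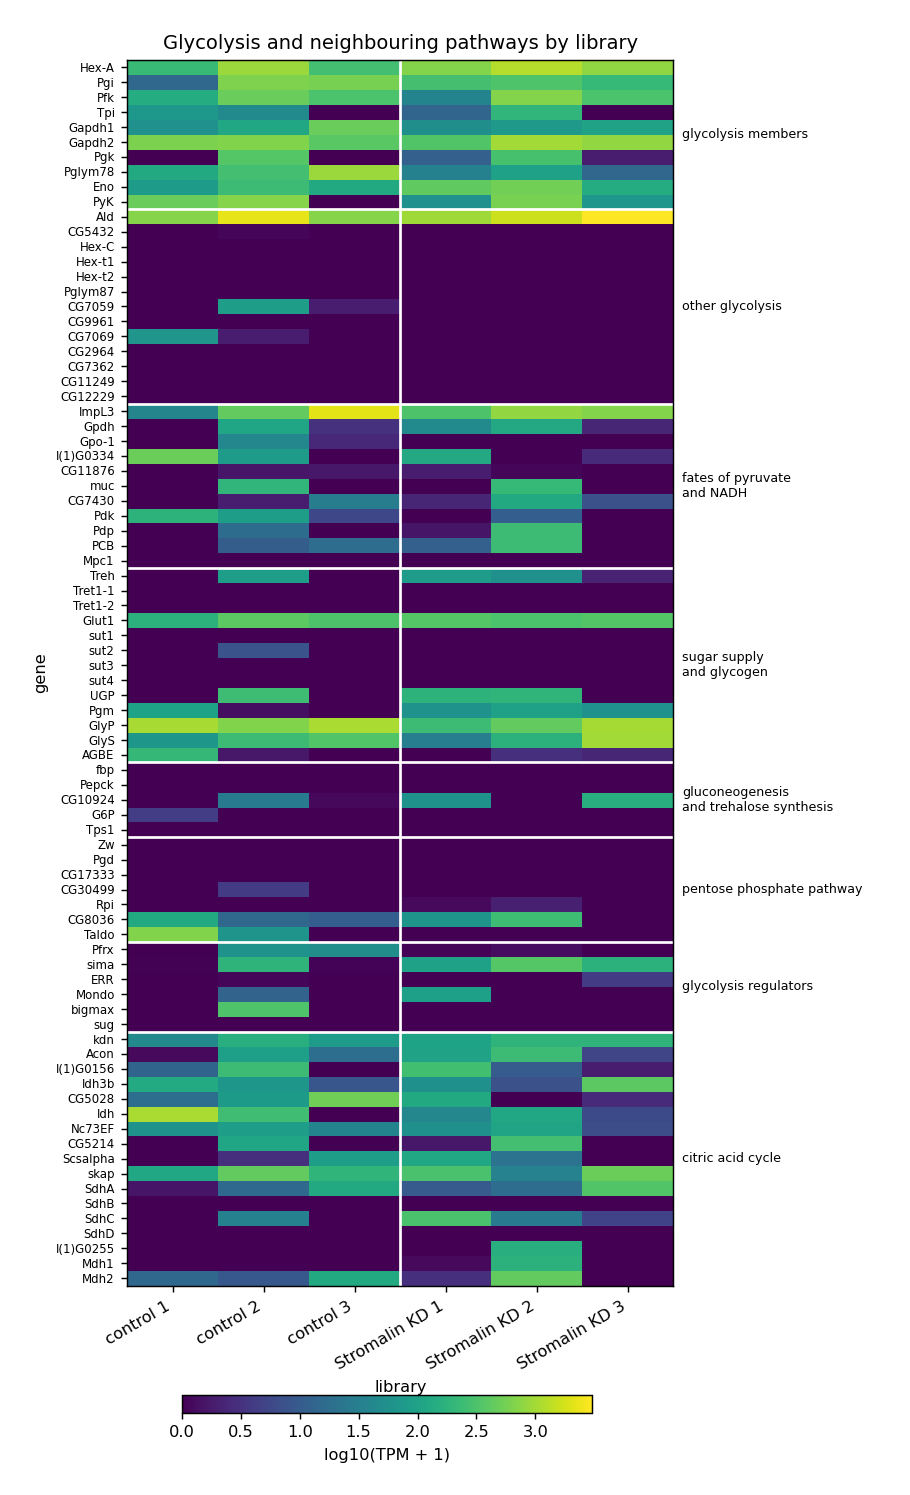
Level as log10(TPM + 1) (colour) of the 10 enzymes and 72 related genes (rows, grouped by list) in the 6 libraries (columns, control left of the white line). Ald, with a mean of 1534 TPM, is the brightest row, Tpi, Pgk and PyK are dark in the libraries where they are at 0, and 24 of the 72 related genes are at 0 in all 6 libraries.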

How the data were processed

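RNA was measured in 3 control and 3 Stromalin KD libraries, grouped by the labelled genotype. Raw counts of reads per gene were deposited as whole numbers, and HTSeq 0.9.1, DESeq2 and the build BDGP6 stand in the processing notes of the submitters. For the aligner, the strand setting and any molecular identifiers, the sources used here give nothing. Another deposited table holds a signal per gene, which is the counts divided by 1 size factor per library, and another deposited table holds TPM. The authors' remaining table holds their fold changes and p-values and was not used.

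Counts were tested with edgeR 4.0.16 in R 4.3.3 with TMM factors, 2-sided, keeping genes that reached 10 counts in 2 or more libraries, with Benjamini-Hochberg adjustment and a threshold of 0.05. Normalized CPM divide the counts by the TMM-scaled library size. Standard errors were derived from the fold change and test statistic. Alternatives were RLE and TMMwsp factors, library totals, the deposited size factors, other filters, DESeq2 1.42.0, limma 3.58.1 on log2(TPM + 1) or log2(TPM + 0.1), a replicate block and leaving out each library. Gene positions came from an Ensembl annotation of BDGP6, matched by identifier.

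All 10 enzymes were named. Of the related lists, Ald, ImpL3, Gpdh and l(1)G0334 were named whatever their values, with genes called at an unadjusted edgeR p or DESeq2 adjusted p under 0.05 and those at 10 counts in all libraries. Genes at 0 throughout were named after their values were seen. The members and lists were chosen with earlier results of these data known. Replicates are separate collections of pooled neurons, each on its own day. Sequences were not used here.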

Additional observations from a re-analysis of the deposited data

How the results depend on the processing

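The count of enzymes called was 0 in the main test and in the settings below, except that DESeq2 without control 2, run after seeing the data, called Pgk. The median fold change, the summed level, detection and the Gapdh1 share moved by less than the spread between libraries, which was wide. The median log2 fold change still ran from -1.15 without Stromalin KD 2 to 0.47 with limma at a pseudocount of 0.1. The log2 fold change of the summed level ran from -0.13 without Stromalin KD 2 to 0.54 without control 2, so both signs turned. The count of all genes called, 2 in the main test, was 0 with TMMwsp factors, library totals or 10 counts in 3 libraries, 1 with no filter, 160 with DESeq2, 1460 with DESeq2 without Cook's or independent filtering, 4 with limma at either pseudocount, and 0 to 3 when 1 library was left out. With the replicate number as a block it was 1. The numbers were not taken as pairs, since each library was collected on its own day. Deviations from the genotype mean correlated at 0.01, -0.04 and -0.04 over 1001 genes for same-numbered libraries. For differently numbered libraries they correlated at -0.03 to 0.06. These values cannot decide pairing, since the deviations of the 3 libraries of a genotype depend on each other. Limma at pseudocounts of 1 and 0.1 moved the median log2 fold change of all genes by 0.13 and 0.17. Larger shifts came from leaving out control 2 (0.41) or Stromalin KD 1 (-0.31). The cause of these shifts was not tested.

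Signs turned as follows. Limma at pseudocounts of 1 and 0.1 gave Pgi 0.64 and 0.67, Pfk -0.47 and -0.48, Tpi -0.10 and -0.12, Pgk 1.38 and 3.23, PyK 0.93 and 2.02, ImpL3 0.75 and 0.76, and GlyS -0.043 and -0.051. The replicate block gave Pgi 0.12, Pfk -0.57, Tpi -0.20, Pgk 4.67, PyK 0.22, ImpL3 0.69 and GlyS -0.20. Pfk was -0.0075 with RLE factors, -0.0093 with no filter and -0.0034 with DESeq2 with or without its filters, and Pgk was 0.041 with TMMwsp factors. Leaving out 1 library gave ranges of -0.81 to 0.59 for Pfk, -2.63 to 1.63 for Tpi, -0.0025 to 0.52 for Gapdh2, -4.02 to 12.13 for Pgk, -1.26 to 1.41 for ImpL3, -0.35 to 5.63 for Gpdh, -8.16 to 0.40 for l(1)G0334, -0.039 to 0.35 for Glut1 and -1.30 to 1.40 for GlyS. Hex-A, Eno and Ald stayed positive and Gapdh1, Pglym78 and GlyP negative in these alternatives. Limma at a pseudocount of 1 gave Pglym78 an unadjusted p of 0.0451 (adjusted p = 0.9997), the lowest of the 10 enzymes in that fit.

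Chosen after seeing the data, enzymes whose genotypes did not overlap numbered 2 with RLE, TMMwsp or deposited factors, beside 6.72% to 6.89% of all genes, and 2 to 4 with 1 library left out, beside 14% to 18.2%. With 1 library left out, DESeq2 called 0 enzymes, or 1 without control 2, and 3 to 7 related genes (10% to 25% of those with an adjusted p), beside 16.3% to 19.8% of all genes. With 3 libraries per genotype, the median standard error of the enzymes was 1.80 on the log2 scale, which limits what these comparisons detect.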

Other observations

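Among regulators of glycolysis, sima, the hypoxia-inducible factor of the fly, had 1, 4183 and 2 counts in control and 2332, 8122 and 3473 counts in Stromalin KD. Control 1 and 3 were near 0 while control 2 lay within the Stromalin KD range, and the log2 fold change of 1.86 did not pass the test (SE 1.67, edgeR unadjusted p = 0.265). Pfrx, which makes the Pfk activator fructose-2,6-bisphosphate, had 0, 810 and 621 counts in control and 1, 4 and 0 counts in Stromalin KD (edgeR unadjusted p = 0.161, DESeq2 adjusted p = 0.0704). Both genes were chosen after their values were seen. The 6 regulators listed gave 3 testable genes, and edgeR called 0 of them.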
